A study of Homo sapiens with 48 samples.

Results

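The respiratory chain genes encoded in the nucleus were examined in PSN1 cells, a pancreatic ductal adenocarcinoma line, before and after the cells acquired resistance to Talazoparib, an inhibitor that traps PARP on DNA. Members were chosen by symbol alone: NDUFA, NDUFB, NDUFC, NDUFS or NDUFV followed by a number, any symbol that starts with UQCR, COX followed by a number, and SDHA to SDHD. This gave 78 genes of the 20241 in the table. RNAseq of 3 groups of 3 libraries was compared. Parental cells were wild type and untreated. TalaR-M cells, selected in rising concentrations of Talazoparib, had been kept in 50 nM of the drug for 4 months. TalaR-DF cells came from the resistant cells and were grown for 4 weeks without the drug, and the labels list them as untreated. The paper reports that PSN1 cells had regained nearly the parental sensitivity by then. Below, resistant groups and resistant libraries thus name TalaR-M and TalaR-DF cells by origin, not by sensitivity at harvest. All groups derive from the same line, and the paper does not say whether the replicates of a group were grown apart. The p-values here thus measure the spread between these samples, which may be technical. Fewer cells of a kind and less RNA per cell cannot be told apart in such bulk samples.

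The respiratory chain passes electrons from NADH and succinate to oxygen through complexes I to IV in the inner mitochondrial membrane, and all but complex II pump protons as they do so. Complex I is built from an NADH-oxidising module, a quinone-binding module and a long membrane arm. Complex II is also an enzyme of the TCA cycle, complex III hands electrons to cytochrome c, and complex IV reduces oxygen. A few core subunits of complexes I, III and IV are encoded in mitochondrial DNA, and the rest are made in the cytosol from the nuclear genes described here, many of them small proteins with short mRNAs. Complex IV also needs dedicated assembly proteins that insert its haem and copper, several of which carry COX symbols.

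Of the 78 members, 69 were above 1 CPM (reads of a gene scaled to the size of its library) in at least 3 libraries and were tested. They comprised 9 of 10 genes of the NADH module of complex I, 6 of 6 of its quinone module, 20 of 20 of its membrane arm, 4 of 4 of complex II, 9 of 9 of complex III, 13 of 19 complex IV subunits and 8 of 9 complex IV assembly genes. The remaining gene, the readthrough NDUFC2-KCTD14, was at 0 in all libraries. These counts are of members by symbol, and the chain genes CYC1, CYCS and NDUFAB1 lie outside the symbol rule. The deposited unit is log2 CPM with values under 0 set to 0, so that a value of 0 stands for at most 1 CPM. Also at 0 in all 9 libraries were COX4I2, the subunit IV isoform known from lung and low oxygen, COX6A2 and COX7A1, the isoforms of heart and skeletal muscle, and COX7B2 and COX8C. Another 3 members, COX20, COX6B2 and NDUFV2, were above 0 in a single library each, at no more than 0.34 log2 CPM. NDUFV2 encodes a core subunit of the NADH module that every respiring cell uses, and COX20 helps to mature subunit 2 of complex IV. For these 2 genes, a second annotated gene covers most of the transcript. In the GENCODE 44 annotation of GRCh38, 90.0% of the exonic bases of NDUFV2 lie under another gene of the same strand, and 95.7% of those of COX20 lie under a gene of the opposite strand. How the counting treated reads shared by overlapping genes is not given in the sources used here. The libraries were stranded, and whether either overlap bears on the low values of NDUFV2 and COX20 was not tested. A share over 50% on the same strand was found for 7 members: NDUFV2, NDUFA13 (83.9%), NDUFA7 (77.9%), NDUFB8 (72.0%), SDHA (69.4%), NDUFA11 (68.2%) and NDUFC2-KCTD14. Their levels, and those of the near-identical pair UQCRH and UQCRHL, are uncertain for that reason.

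One library stood apart. In 8 of the 9 libraries the members together took between 0.583% and 0.657% of the reads on genes above 1 CPM, and in TalaR-M replicate 2 they took 1.55%. That library was also the shallowest, with 8387755 such reads against 12213605 to 14973847 in the others. The members have short transcripts: the median canonical length was 894 bases for those tested and 3408 bases for all genes tested, and 55.1% of the members were under 1000 bases, against 5.23% of all genes. Set against the mean of TalaR-M replicates 1 and 3, replicate 2 was higher by a median of 1.64 log2 units over the 69 members (3.12-fold), and 49 of them were over 2-fold higher. The gap followed length. Members under 1000 bases were higher by a median of 2.01, those of 1000 to 2000 bases by 1.44, and longer members by 0.51, while over all genes tested the median was -0.31. Over all genes tested, the median was 1.64 for those under 1000 bases and -0.64 for those of 2000 bases or more. The medians of the members were above these in both length classes, and the cause was not tested. Lengths are those of canonical transcripts, and which transcript was expressed was not tested. NDUFA9 (8356 bases) and UQCRB (8459 bases) were higher in replicate 2 by 2.80 and 2.13. The bin of all genes with a median length of 8488 bases had a median of -1.33. Across the 63 members with a mean over 3 log2 CPM, the Pearson r between the gap and log2 length was -0.63, given as a description since all points share the same libraries. In the other 8 libraries, no more than 1 member, COX16, lay over 2-fold from the mean of the other replicates of its group when replicate 2 was kept out of the TalaR-M means. Below, counts and calls without TalaR-M replicate 2 are therefore set beside those of all 9 libraries.

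**Figure D1:**
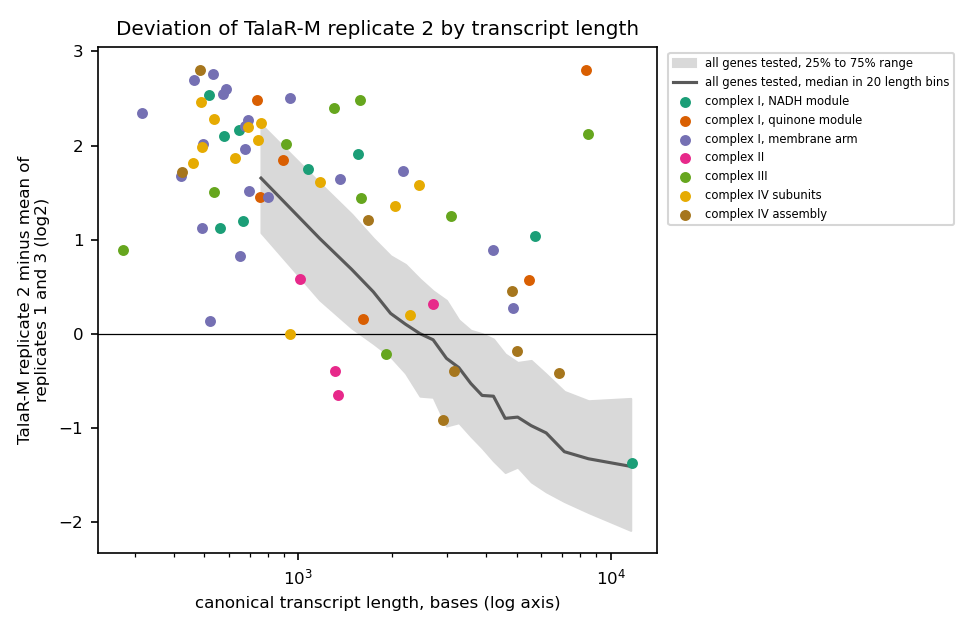
Each point is 1 of the 69 members tested, coloured by complex. The horizontal axis is the length of the canonical transcript in bases on a log axis, and the vertical axis is the log2 CPM of TalaR-M replicate 2 minus the mean of replicates 1 and 3. The grey line and band give the median and the 25% to 75% range of all genes tested in 20 bins of length. Most members under 1000 bases sit near or above 2, and the grey line falls below 0 for long transcripts.

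The choice of libraries sets the picture of the whole group. With all 9 libraries, the median log2 fold change of the members in TalaR-M over parental cells was 0.61, against -0.09 for all genes tested, and 56 of 69 members were above 0. Without replicate 2 the median was 0.07, against 0.01 for all genes, and 39 of 69 were above 0. For TalaR-DF over parental cells, a comparison with no TalaR-M library in its means, the median was 0.09, against 0.01 for all genes. The medians of the members in TalaR-M over TalaR-DF cells were 0.43 with 9 libraries and -0.05 without replicate 2. Leaving replicate 2 out turned the direction of 21 members between TalaR-M and parental cells, 19 of them from higher to lower. The 8 other libraries also varied: TalaR-M replicate 1 was above replicate 3 in 63 of 69 members, by a median of 0.18 (0.09 over all genes tested), and TalaR-DF replicate 1 was above replicate 2 in 59, by a median of 0.16 (0.02 over all genes). Shifts of that size are as large as many of the differences between groups below.

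**Figure D2:**
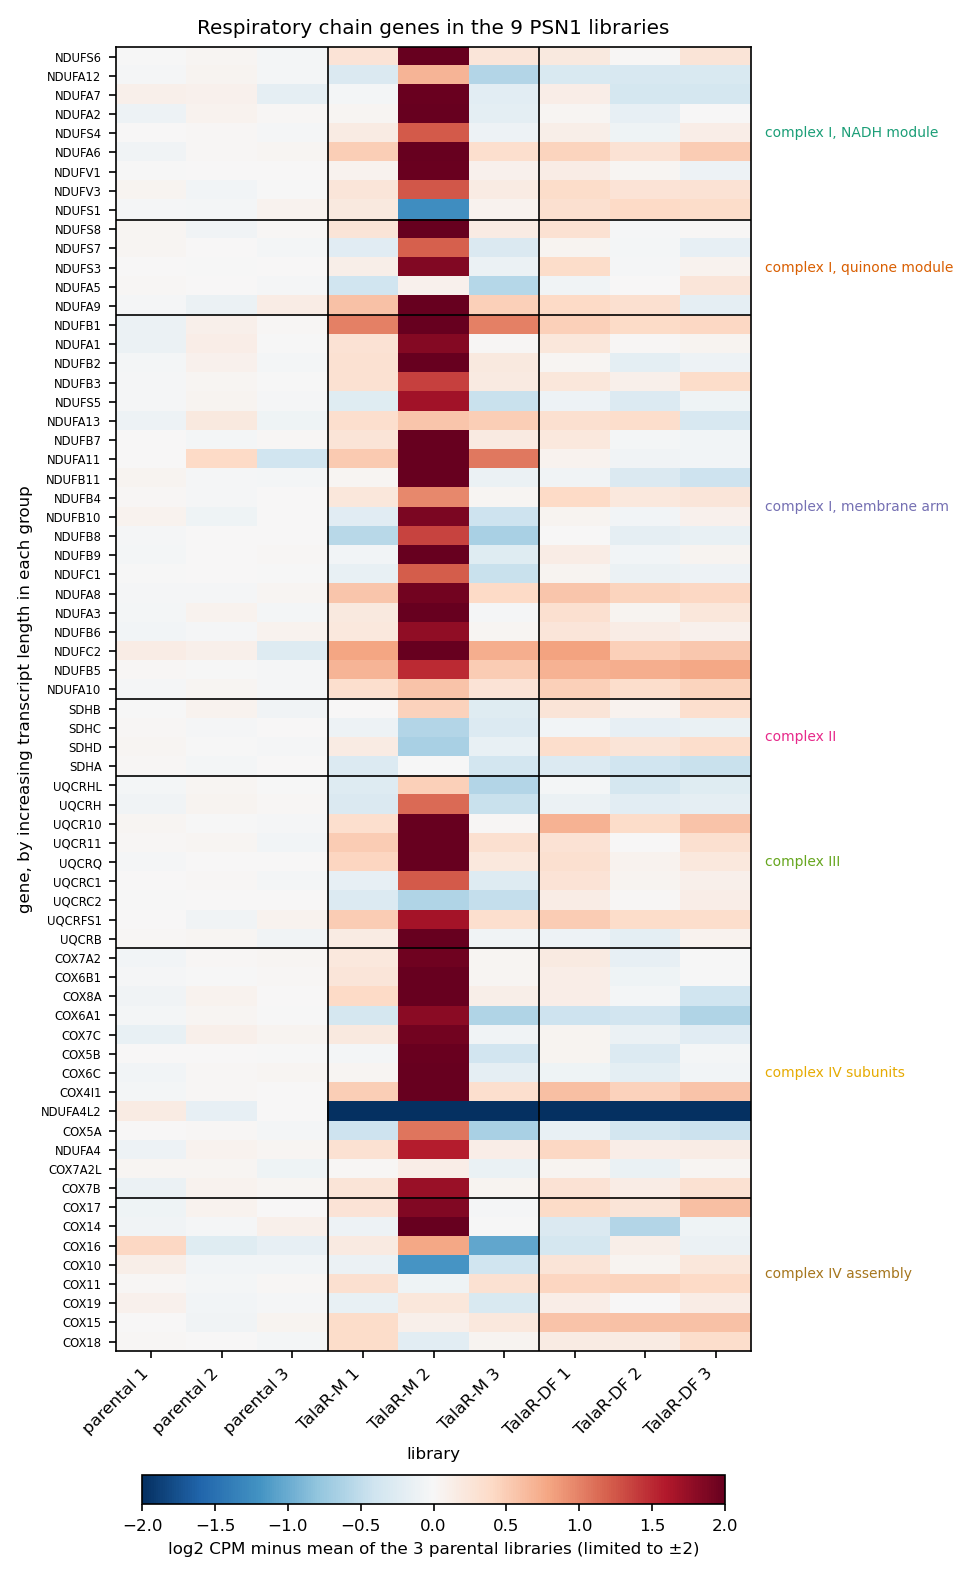
The colour gives the log2 CPM of 68 of the 69 members tested in each of the 9 libraries minus the mean of the 3 parental libraries, limited to 2 in either direction. Members are grouped by complex and ordered by transcript length within each group. The column of TalaR-M replicate 2 is red for most short members, and the row of NDUFA4L2 is blue in all 6 resistant libraries.

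The largest change among the members, with or without that library, was the loss of NDUFA4L2 (chromosome 12, 57234903 to 57240715, minus strand, GRCh38). NDUFA4L2 is the paralogue of the complex IV subunit NDUFA4 that low oxygen is known to induce, and it has been linked to lower complex I activity. Its values were 5.05, 4.72 and 4.89 log2 CPM in the parental libraries, which is 26.4 to 33.1 CPM, and 0 in all 6 resistant libraries. The groups did not overlap, and TalaR-M replicate 2 was at 0 although the transcript has 943 bases. Parental cells were thus at least 29.6-fold higher than a group at or under 1 CPM. The adjusted p of limma was 1.50e-07 against TalaR-M and 2.17e-07 against TalaR-DF cells, and the call held in each of the 9 fits that left out 1 library. No difference between TalaR-M and TalaR-DF cells can be read, since both are at the floor. NDUFA4 itself was at 6.42 to 6.59 in parental, 6.65 and 6.83 in TalaR-M replicates 3 and 1, and 6.66 to 6.94 in TalaR-DF libraries. Its log2 fold change was 0.24 ± 0.08 (SE) in TalaR-DF over parental cells, with an adjusted p of 0.0281 without replicate 2 and 0.742 with 9 libraries.

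With an adjusted p under 0.05 as the rule and all 9 libraries, 1 member was higher and 3 were lower in TalaR-M than in parental cells, where 10.3% of all genes tested were called higher and 13.2% lower. NDUFB5 was higher, and NDUFA4L2 and UQCRC2 were among those lower. In TalaR-DF over parental cells 2 members were higher (COX15 and NDUFA10) and 2 lower, among them NDUFA4L2, where 6.77% of all genes were called higher and 11.8% lower. Between TalaR-M and TalaR-DF cells, 0 members were higher by limma and 1 was lower (UQCRC2), against 7.79% and 4.25% of all genes. At an unadjusted p under 0.05, 2 members were higher and 4 lower there, beside 1845 and 1873 of all 12471 genes tested. Leaving out any library other than TalaR-M replicate 2 gave 2 to 8 members called in TalaR-M against parental cells, 1 to 5 in TalaR-DF against parental cells and 0 to 3 between the resistant groups. The shares of all genes called in those fits were not counted. In TalaR-M against parental cells, NDUFB5 lost its call in 6 of the 9 fits that left out 1 library (each one that left out a parental or a TalaR-DF library) and UQCRC2 in 7, those and the fit without TalaR-M replicate 3, with an adjusted p of up to 0.0904 for NDUFB5 and 0.106 for UQCRC2. In TalaR-DF against parental cells, COX15 lost its call without parental or TalaR-DF replicate 2 and NDUFA10 lost it in 7 of the 9 fits, with an adjusted p of up to 0.0571 for COX15 and 0.151 for NDUFA10.

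Without TalaR-M replicate 2 the estimated spread fell and more members passed the rule. In TalaR-M against parental cells 19 of 69 were higher and 17 lower, beside 30.2% and 30.0% of all genes tested, so that 27.5% and 24.6% of the members moved. In TalaR-DF against parental cells 20 were higher and 8 lower, beside 32.5% and 30.4% of all genes. The share of members that rose, 29.0%, was near that of all genes, and the share that fell was 11.6%. Between TalaR-M and TalaR-DF cells 3 were higher and 14 lower, beside 23.5% and 25.3%. All 4 members called in each comparison with parental cells with 9 libraries, and the 1 called between the resistant groups, were called again. A further limit of at least 2-fold left NDUFA4L2, lower in both comparisons with parental cells, with and without replicate 2. The share of all genes called lower by this rule was 7.72% in TalaR-M and 7.49% in TalaR-DF cells with 9 libraries, and 7.07% and 8.63% without replicate 2. In the other direction, NDUFB1 was called in TalaR-M cells without replicate 2, where 6.78% of all genes were, and 0 members were called by limma in TalaR-M cells with 9 libraries (5.53% of all genes; 4 members at an unadjusted p under 0.05) or in TalaR-DF cells in either fit (2.25% and 2.73%; 0 members unadjusted). Between the resistant groups 0 members passed that limit by limma, against 5.29% of all genes higher and 1.64% lower with 9 libraries and 6.96% and 1.40% without replicate 2, and at an unadjusted p under 0.05 there were 2 higher with 9 libraries. After NDUFB1, the highest log2 fold change over parental cells without replicate 2 was 0.79 (NDUFA11), in TalaR-M cells.

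In a count that needs no model, the libraries of TalaR-M and parental cells did not overlap in 26 members that were higher and 5 that were lower in TalaR-M cells, beside 20.9% and 28.8% of all genes. Without replicate 2 these were 29 and 21 members, beside 37.9% and 37.1%. In TalaR-DF against parental cells, 24 members lay wholly above and 12 wholly below, beside 35.3% and 33.2%. TalaR-M libraries lay wholly above TalaR-DF libraries in 4 members and below in 6 with 9 libraries, beside 16.7% and 24.1%, and in 4 and 20 without replicate 2, beside 28.8% and 31.8%.

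**Figure D3:**
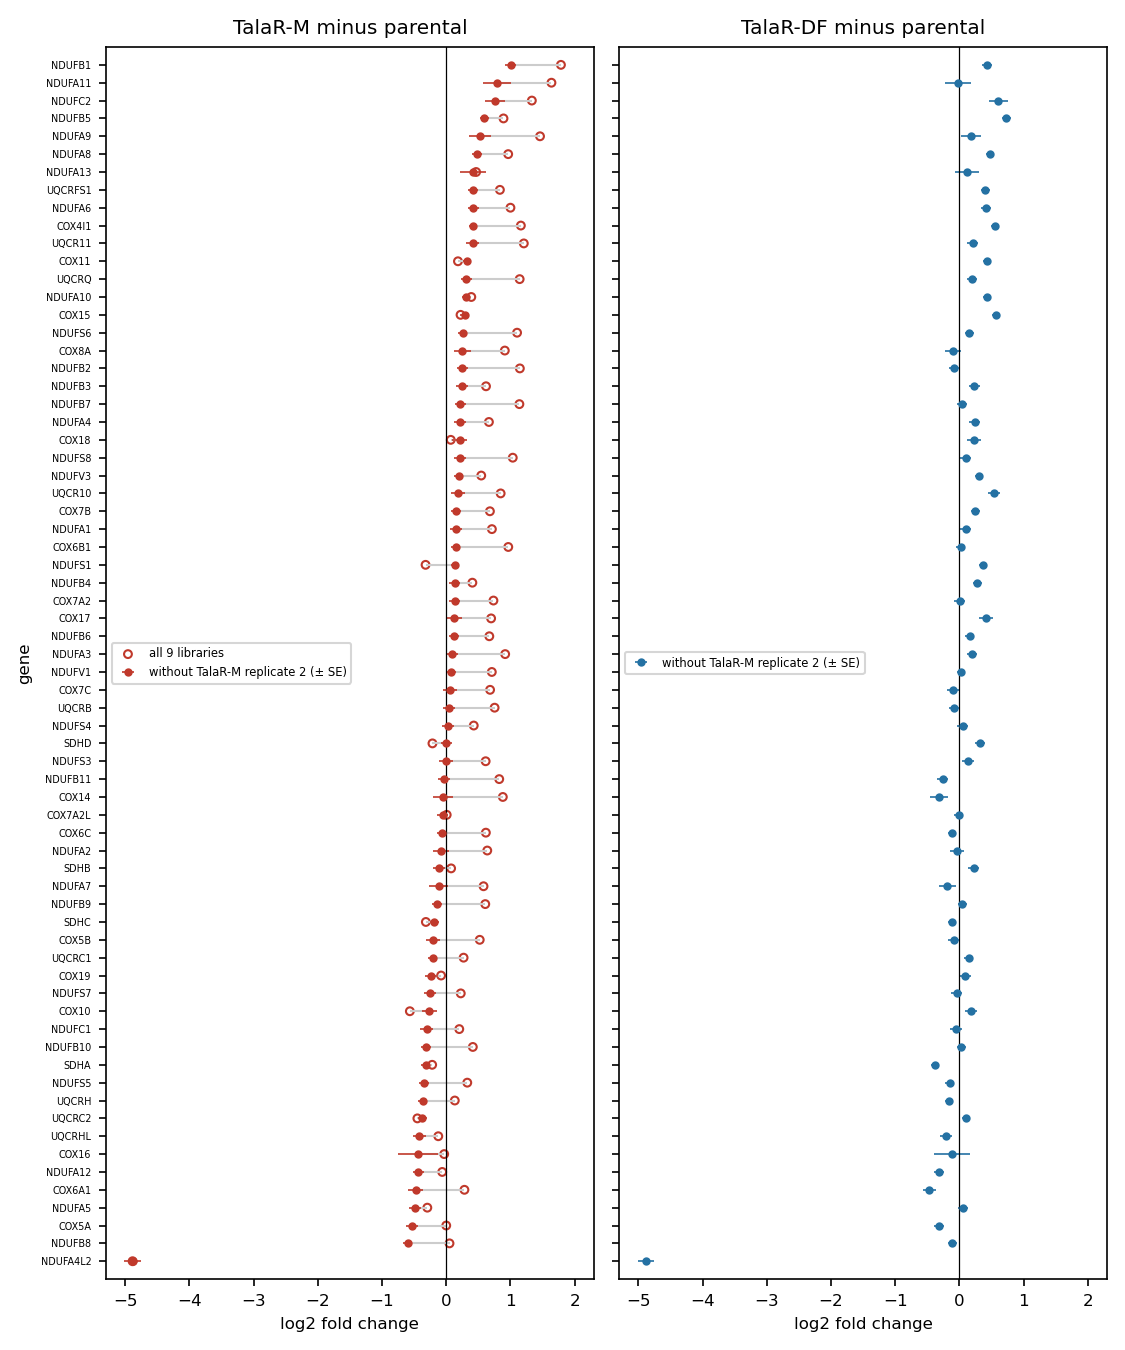
Log2 fold changes over parental cells are on the horizontal axes and 68 of the 69 members tested, in the order of their TalaR-M value, on the vertical axis. Open circles are the fit of 9 libraries, and filled circles with bars of 1 standard error the fit without TalaR-M replicate 2. Open circles lie to the right of filled ones for most members in TalaR-M cells, and NDUFA4L2 sits at -4.89 in both panels.

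Both comparisons use the same parental libraries, so their calls are set side by side and not tested against each other. Without TalaR-M replicate 2, 12 members were higher than parental in both resistant groups and 7 were lower in both. Another 7 were higher and 10 lower in TalaR-M cells alone by the calls, 8 were higher and 1 lower in TalaR-DF cells alone, and 24 were called in neither. No member rose in 1 group and fell in the other. With 9 libraries 2 members were lower in both, 1 was higher and 1 lower in TalaR-M cells alone, 2 were higher in TalaR-DF cells alone, and 63 were called in neither. Without replicate 2, 30.2% of all genes tested were higher and 30.0% lower in TalaR-M cells, and 32.5% and 30.4% in TalaR-DF cells. How many of all genes share each joint pattern was not counted, so these numbers do not set the members apart from other genes.

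In the quinone module of complex I, 1 of 6 members was higher and 3 were lower in TalaR-M than in parental cells without replicate 2. Of all genes tested, 30.2% were higher and 30.0% lower in that fit. NDUFA5, an accessory subunit named after its values were seen, was at 6.72, 6.71 and 6.68 log2 CPM in parental, 6.31, 6.79 and 6.13 in TalaR-M and 6.63, 6.71 and 6.95 in TalaR-DF libraries. Replicate 2 of TalaR-M lay above the parental libraries and the other TalaR-M libraries below all of them. NDUFA5 fell in TalaR-M cells by 0.48 without that library (adjusted p = 0.000648), and did not pass with 9 libraries (adjusted p = 0.268). After a smooth trend on transcript length was removed from each of the 9 libraries, its direction turned, to 0.10 (adjusted p = 0.853). NDUFA9, which stabilises the joint to the membrane arm, was higher in TalaR-M replicates 1 and 3 (2.92 and 2.82) than in parental libraries (2.22 to 2.49; adjusted p = 0.0207 without replicate 2 and 0.154 with 9 libraries), while TalaR-DF libraries spanned 2.17 to 2.74 and overlapped parental ones.

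In the NADH module, NDUFA6 rose in both groups, by 0.42 ± 0.08 (SE) in TalaR-M and 0.41 ± 0.08 in TalaR-DF cells without replicate 2, and NDUFA12 fell by 0.44 and 0.31. Both are accessory subunits. NDUFA6 was at 5.17 to 5.28 in parental libraries, at 5.73 and 5.58 in TalaR-M replicates 1 and 3 and at 5.52 to 5.74 in TalaR-DF libraries. NDUFA12 was at 5.58 to 5.67, then 5.33 and 5.03, then 5.29 to 5.31. In neither gene did these libraries overlap those of parental cells. With TalaR-M replicate 2, at 7.40 for NDUFA6 and 6.30 for NDUFA12, neither gene passed the test in any comparison.

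In the membrane arm, 9 of 20 members rose and 4 fell in TalaR-M cells without replicate 2, beside 30.2% and 30.0% of all genes tested. In TalaR-DF cells 7 rose and 1 fell, beside 32.5% and 30.4%. With 9 libraries 1 rose and 0 fell by limma in either comparison. At an unadjusted p under 0.05, 7 rose and 0 fell in TalaR-M cells, beside 2073 and 2616 of all 12471 genes tested. In TalaR-DF cells 2 rose and 0 fell, beside 1590 and 2079. NDUFB1 (chromosome 14, 92116122 to 92121917, minus strand), one of the smallest subunits with a transcript of 317 bases, had values of 4.34, 4.56 and 4.48 in parental, 5.46, 7.81 and 5.47 in TalaR-M and 4.94, 4.84 and 4.87 in TalaR-DF libraries. The 3 groups formed separate steps with parental lowest, also when replicate 2 was set aside. Its rise was 2.01-fold in TalaR-M and 1.34-fold in TalaR-DF cells without that library (adjusted p = 1.64e-06 and 0.000571), and the resistant groups differed by 0.58 ± 0.09 (SE) log2 units (adjusted p = 0.000233). With 9 libraries none of these passed (adjusted p = 0.0519, 0.712 and 0.149). With the length trend removed and all 9 libraries kept, the log2 fold changes were 0.89 and 0.51, with adjusted p of 0.000234 and 0.00552.

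NDUFB5 (chromosome 3, 179604690 to 179627647, plus strand), another accessory subunit of the arm, has a transcript of 4199 bases. It stood at 5.30, 5.27 and 5.26 in parental, 5.95, 6.76 and 5.79 in TalaR-M and between 5.97 and 6.05 in the 3 TalaR-DF libraries, with no overlap between parental and resistant libraries. Without replicate 2 it was 1.51-fold higher in TalaR-M and 1.66-fold higher in TalaR-DF cells (adjusted p = 2.05e-05 and 1.32e-06), and the resistant groups did not pass the test (adjusted p = 0.129). With 9 libraries the adjusted p was 0.0275 in TalaR-M and 0.0670 in TalaR-DF cells. NDUFA8, on the intermembrane-space side, and NDUFA10, on the matrix side, also rose in both groups without replicate 2 and were named after their values were seen. NDUFA8 went from 5.56, 5.56 and 5.61 in parental to 6.13, 7.51 and 5.98 in TalaR-M and 6.14, 6.02 and 5.99 in TalaR-DF libraries, a rise of 0.48 ± 0.07 (SE) and 0.47 ± 0.07 without replicate 2 that did not pass with 9 libraries (adjusted p = 0.0874 and 0.462). NDUFA10, with a transcript of 4855 bases, went from 6.71, 6.78 and 6.71 to 7.07, 7.30 and 7.00 in TalaR-M and 7.21, 7.09 and 7.18 in TalaR-DF libraries. For both genes every resistant library, replicate 2 included, was above every parental one.

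NDUFB8, an accessory subunit of the same arm, went the other way in TalaR-M cells. Its values were 5.86, 5.90 and 5.91 in parental, 5.34, 7.25 and 5.24 in TalaR-M and 5.90, 5.71 and 5.74 in TalaR-DF libraries. Replicates 1 and 3 of TalaR-M were below all others and replicate 2 above all others, so that the log2 fold change against parental cells was 0.05 with 9 libraries and -0.60 ± 0.08 (SE) without it (adjusted p = 0.945 and 3.42e-05). Without it NDUFB8 was also 1.41-fold lower in TalaR-M than in TalaR-DF cells (adjusted p = 0.000262). With the length trend removed and all 9 libraries kept, it was lower in both comparisons, at -0.56 and -0.46. NDUFB10 followed the same course at smaller size, with -0.32 against parental and -0.35 against TalaR-DF cells without replicate 2 and 0.41 and 0.39 with it (adjusted p = 0.580 and 0.611). NDUFB9 and NDUFB11 also turned from higher to lower against parental cells, but neither passed the test there (-0.15 and -0.04 without replicate 2). NDUFA11, at 0.80 to 1.59 log2 CPM in parental, 1.73 and 2.25 in TalaR-M replicates 1 and 3 and 1.13 to 1.27 in TalaR-DF libraries, was near the floor, and its parental libraries alone spread over 0.79 log2 units.

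Complex II was the group that TalaR-M replicate 2 moved least, with a median gap of -0.04. SDHA (chromosome 5, 218303 to 257082, plus strand), the flavoprotein that oxidises succinate, was at 8.19, 8.13 and 8.18 in parental, 7.90, 8.16 and 7.80 in TalaR-M and 7.89, 7.77 and 7.72 in TalaR-DF libraries. Replicate 2 was the only resistant library within the parental range. Without it SDHA was 1.25-fold lower in TalaR-M and 1.30-fold lower in TalaR-DF cells (adjusted p = 0.00133 and 0.000177). With 9 libraries the adjusted p was 0.255 and 0.0920. The membrane anchor SDHD rose in TalaR-DF cells without replicate 2, from 6.66 to 6.72 in parental to 6.94 to 7.04 (adjusted p = 0.00258), and differed from TalaR-M cells by -0.32 (TalaR-M minus TalaR-DF, adjusted p = 0.00780). With 9 libraries neither passed (adjusted p = 0.338 and 0.115). The 4 subunits of this complex thus did not move one way in TalaR-DF cells without replicate 2: SDHB and SDHD were higher, SDHA was lower and SDHC did not pass the test.

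In complex III, UQCRC2 (chromosome 16, 21953288 to 21983660, plus strand), 1 of the large core proteins, set TalaR-M apart from both other groups. This gene was named after its values were seen. Its values were 7.93, 7.95 and 7.95 in parental, 7.66, 7.35 and 7.47 in TalaR-M and 8.10, 7.96 and 8.08 in TalaR-DF libraries. All 3 TalaR-M libraries, replicate 2 included, were below the other 6. It was 1.30-fold lower than in parental and 1.40-fold lower than in TalaR-DF cells without replicate 2 (adjusted p = 0.000637 and 0.000166), and passed with 9 libraries as well (adjusted p = 0.0325 and 0.0241). Against TalaR-DF cells, too, the call was lost in 7 of the 9 fits that left out 1 library, with an adjusted p of up to 0.101. UQCRFS1, the Rieske iron-sulfur protein, rose by 0.42 ± 0.07 (SE) and 0.41 ± 0.07 in TalaR-M and TalaR-DF cells without replicate 2, and passed in neither with 9 libraries (adjusted p = 0.0909 and 0.476). UQCR10, a small subunit, was higher in TalaR-DF (6.17, 5.84 and 6.03) than in parental libraries (5.50, 5.45 and 5.44), while TalaR-M replicates 1 and 3 were at 5.80 and 5.48. The adjusted p of TalaR-DF over parental cells was 0.000407 without replicate 2 and 0.555 with 9 libraries. UQCRHL, nearly identical to UQCRH, had log2 fold changes of -0.42 in TalaR-M and -0.21 in TalaR-DF cells without replicate 2, and only the first passed (adjusted p = 0.00431 and 0.0675, and 0.730 and 0.675 with 9 libraries).

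Among complex IV subunits the ubiquitous isoforms moved in different directions. COX4I1 (chromosome 16, 85798633 to 85807068, plus strand), the general form of regulatory subunit IV, was at 7.58, 7.63 and 7.63 in parental, 8.11, 10.26 and 7.95 in TalaR-M and 8.22, 8.08 and 8.18 in TalaR-DF libraries. Every resistant library was above every parental one. The rise was 1.34-fold in TalaR-M and 1.46-fold in TalaR-DF cells without replicate 2 (adjusted p = 0.000238 and 1.02e-05), and did not pass with 9 libraries (adjusted p = 0.150 and 0.591). COX6A1 was at 4.44, 4.51 and 4.45 in parental, 4.11, 6.27 and 3.87 in TalaR-M and 4.06, 4.09 and 3.86 in TalaR-DF libraries. It was 1.39-fold and 1.38-fold lower without replicate 2 (adjusted p = 0.00313 and 0.00158), and 0.28 log2 units higher in TalaR-M cells with it (adjusted p = 0.718). COX7A2 did not pass in any comparison. Their muscle and low-oxygen counterparts COX4I2, COX6A2 and COX7A1 were at 0 throughout, so no exchange of isoforms was detectable at this depth.

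Of the assembly genes of complex IV, COX15 (chromosome 10, 99710868 to 99732127, minus strand), the haem A synthase, had the clearest change. It was at 5.76, 5.68 and 5.81 in parental, 6.11, 5.85 and 5.96 in TalaR-M and 6.32, 6.33 and 6.33 in TalaR-DF libraries. The 3 groups did not overlap, with TalaR-M between the others. TalaR-DF cells were 1.49-fold above parental cells (adjusted p = 0.0112 with 9 libraries and 8.45e-06 without replicate 2). TalaR-M cells were 1.22-fold above parental and 1.22-fold below TalaR-DF cells without replicate 2 (adjusted p = 0.00387 and 0.00472), and neither passed with 9 libraries (adjusted p = 0.204 and 0.0951). COX11, a copper chaperone, rose by 0.32 ± 0.06 (SE) and 0.43 ± 0.06 in TalaR-M and TalaR-DF cells without replicate 2, and passed in neither with 9 libraries (adjusted p = 0.361 and 0.0738). COX14 and COX16 were low, at no more than 2.92 and 1.55 log2 CPM outside TalaR-M replicate 2, and passed in no comparison.

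**Figure D4:**
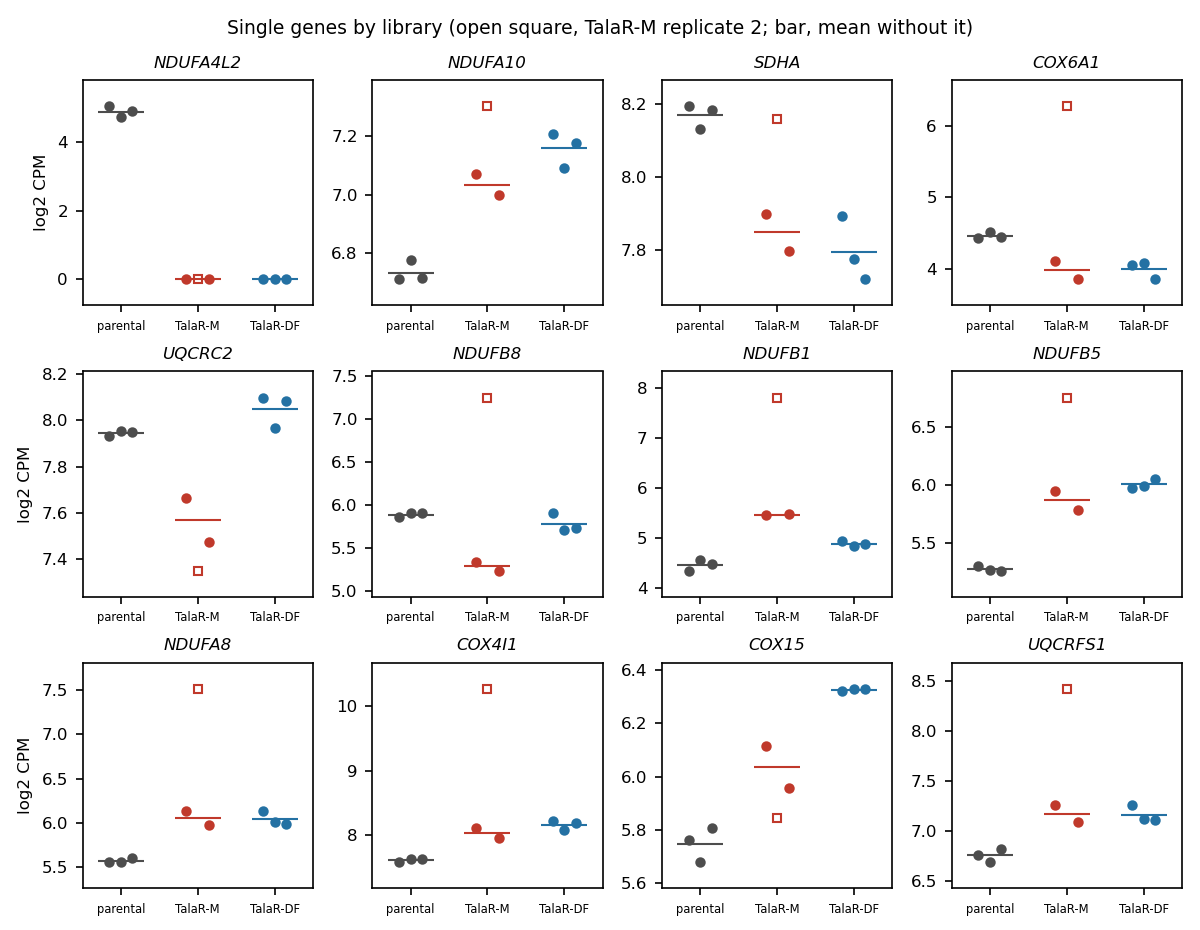
Log2 CPM of 12 members in each library, with parental in grey, TalaR-M in red and TalaR-DF in blue. The vertical axis differs between panels and does not start at 0 in most. The open square is TalaR-M replicate 2, and the bar is the mean of the group without it. NDUFA4L2 is at 0 in the 6 resistant libraries, UQCRC2 is low in the 3 TalaR-M libraries, and the open square lies far above the other TalaR-M libraries for NDUFB8, COX6A1 and COX4I1.

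The promoters of 57 of the 69 members tested were found in the RefSeq-derived table of 300-base windows (GRCh38.p14). Respiratory chain promoters are known for sites of NRF1 and of ETS factors. On either strand, the letters used here for NRF1, GCGC followed by any base, a T and GCGC again, were present in 24.6% of the members' windows, in 11.7% of those of 10093 genes tested and in 6.28% of all 27305. The letters CCGGAAG, used for ETS factors, were present in 31.6%, 19.5% and 10.7%, and the core ACGTG of hypoxia elements in 28.1%, 26.8% and 21.6%. No motif is contained in another. Stretches upstream of the start that no annotated exon covers are shown for SDHA, which fell in both resistant groups without replicate 2, and for COX15 and NDUFA8, which rose in both. They were chosen after the values were seen, and capitals mark a match to NRF1 or ETS letters on either strand. The SDHA stretch (chr5:218154-218297, plus strand) holds 3 NRF1 matches in a repeat, COX15 (chr10:99732128-99732233, minus strand) 1 ETS match next to the start, and NDUFA8 (chr9:122159780-122159907, minus strand) none.
SDHA: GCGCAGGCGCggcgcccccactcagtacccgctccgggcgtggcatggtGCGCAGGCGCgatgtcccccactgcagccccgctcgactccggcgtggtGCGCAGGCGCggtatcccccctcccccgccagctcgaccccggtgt
COX15: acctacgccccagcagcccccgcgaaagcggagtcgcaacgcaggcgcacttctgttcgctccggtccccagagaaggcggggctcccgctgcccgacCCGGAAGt
NDUFA8: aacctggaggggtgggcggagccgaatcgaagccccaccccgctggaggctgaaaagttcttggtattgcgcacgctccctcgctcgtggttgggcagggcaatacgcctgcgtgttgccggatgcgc

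Genes that work with the chain were counted for comparison, without TalaR-M replicate 2. In that fit 32.5% of all genes tested were called higher and 30.4% lower in TalaR-DF than in parental cells, 30.2% and 30.0% in TalaR-M than in parental cells, and 23.5% and 25.3% in TalaR-M than in TalaR-DF cells. By an unadjusted p under 0.05 of limma, 4284 of all 12471 genes tested were higher and 4018 lower in TalaR-DF than in parental cells. In TalaR-M against TalaR-DF cells 3262 were higher and 3594 lower, and 1845 and 1873 with 9 libraries. Of 16 complex I assembly factors, 11 were higher in TalaR-DF than in parental cells and 0 lower (3 and 0 with 9 libraries). At an unadjusted p under 0.05, 12 were higher and 1 lower, with a median of 0.40 log2 units against 0.01 for all genes tested. Against TalaR-M cells, 10 of the 16 were lower in TalaR-M cells and 0 higher, also at an unadjusted p. With 9 libraries 0 passed either way by limma, and 2 were lower at an unadjusted p under 0.05. NDUFAF4 had the largest value in TalaR-DF cells, 0.79 ± 0.15 (SE, adjusted p = 0.000619, and 0.299 with 9 libraries), and NDUFAF1 the smallest, -0.24 (adjusted p = 0.0660). Of 22 assembly factors of complexes II to IV, 14 were higher in TalaR-DF than in parental cells and 0 lower by limma, with 1 lower at an unadjusted p under 0.05 (2 higher and 0 lower with 9 libraries). HIGD1A, a low-oxygen-induced factor of complexes III and IV, led with 0.92 ± 0.07 (SE) and also rose in TalaR-M cells by 0.78, and both calls held with 9 libraries (adjusted p = 0.00188 and 0.00619). The smallest value was -0.26 for SDHAF1. Of 3 chain genes outside the symbol rule (CYC1, CYCS and NDUFAB1), 3 were higher in TalaR-DF than in parental cells and 0 lower (1 and 0 with 9 libraries). In TalaR-M against parental cells 1 was higher and 1 lower (1 and 0 with 9 libraries). All 3 were lower in TalaR-M than in TalaR-DF cells. With 9 libraries 0 passed there by limma, also at an unadjusted p under 0.05.

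Of 19 ATP synthase genes, 6 were higher and 4 lower in TalaR-M and 4 and 3 in TalaR-DF cells against parental cells. With 9 libraries these were 1 and 1 in TalaR-M and 0 and 0 by limma in TalaR-DF cells (0 higher and 1 lower at an unadjusted p under 0.05). ATP5G1 rose by 0.47 in TalaR-DF cells, and ATP5G2, another gene for the same c subunit, fell by 0.62, and neither passed with 9 libraries (adjusted p = 0.568 and 0.245). TCA cycle genes were higher in 9 of 17 and lower in 2 in TalaR-DF cells, 1 and 5 in TalaR-M cells, and 12 of 17 were lower in TalaR-M than in TalaR-DF cells. With 9 libraries 0 of 17 passed in TalaR-DF over parental cells by limma (1 higher and 0 lower at an unadjusted p under 0.05), and 0 were higher and 1 lower in TalaR-M cells (also at an unadjusted p). Citrate synthase (CS) had the smallest value in TalaR-DF cells, -0.27 (adjusted p = 0.00137, and 0.339 with 9 libraries). Between the resistant groups 0 of 17 passed with 9 libraries by limma, and 6 were lower at an unadjusted p under 0.05. Coenzyme Q synthesis genes were higher in 7 of 13 and lower in 2 in TalaR-DF cells, from 0.79 for COQ9 to -0.44 for COQ5. With 9 libraries 2 were higher and 0 lower by limma (3 and 1 at an unadjusted p under 0.05), COQ9 among them and COQ5 not (adjusted p = 0.0115 and 0.0709). At an unadjusted p under 0.05 with 9 libraries, 1590 of all 12471 genes tested were higher and 2079 lower in TalaR-DF than in parental cells. In TalaR-M against parental cells these were 2073 and 2616, and against TalaR-DF cells 1845 and 1873.

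Regulators of mitochondrial biogenesis were lower in TalaR-M than in TalaR-DF cells in 16 of 16 by sign and in 12 by the test without replicate 2 (3 with 9 libraries). Of all 12471 genes tested, 6438 were lower by sign without replicate 2, and 25.3% by the test (4.25% with 9 libraries). Against parental cells without replicate 2, 1 of 16 was higher and 8 lower in TalaR-M cells, beside 30.2% and 30.0% of all genes. In TalaR-DF cells 7 were higher and 1 lower, beside 32.5% and 30.4%. With 9 libraries these were 0 and 2 by limma in TalaR-M (0 and 4 at an unadjusted p under 0.05) and 1 and 1 in TalaR-DF cells. TFAM, which packages and transcribes mitochondrial DNA, was at 6.48, 6.41 and 6.39 in parental, 6.77, 5.31 and 6.57 in TalaR-M and 7.42, 7.46 and 7.56 in TalaR-DF libraries. The TalaR-DF libraries were above all others, by 1.05 ± 0.06 (SE) log2 units over parental cells without replicate 2 (adjusted p = 7.52e-08). With 9 libraries the adjusted p was 0.0674 over parental and 0.0469 over TalaR-M cells. PPARGC1A, the coactivator known to drive biogenesis, was low in parental cells (1.77, 1.87 and 2.08), 0 in all 3 TalaR-M libraries and 0.23, 0.13 and 0.73 in TalaR-DF libraries, and it fell in both groups with 9 libraries (adjusted p = 0.000111 and 0.000476). The 13 protein genes of mitochondrial DNA were all above 0 in TalaR-M over parental cells without replicate 2, with a median of 0.61, and 4 passed. With 9 libraries 12 were above 0 and MT-ND4L was below, and 0 passed by limma (3 were higher at an unadjusted p under 0.05). In TalaR-DF over parental cells all 13 were above 0 as well, with a median of 0.31, and 0 of 13 passed by limma in either fit, also at an unadjusted p under 0.05. Of all 12471 genes tested, 6366 were above 0 in TalaR-M cells without replicate 2 and 6397 in TalaR-DF cells. At an unadjusted p under 0.05, 2073 of all genes tested were higher in TalaR-M cells with 9 libraries. In TalaR-DF cells these were 1590 with 9 libraries and 4284 without replicate 2. The share of reads on mitochondrial DNA genes varied within groups, from 1.98% to 3.35% in parental, from 3.36% to 5.21% in TalaR-M and from 2.20% to 5.25% in TalaR-DF libraries.

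**Figure D5:**
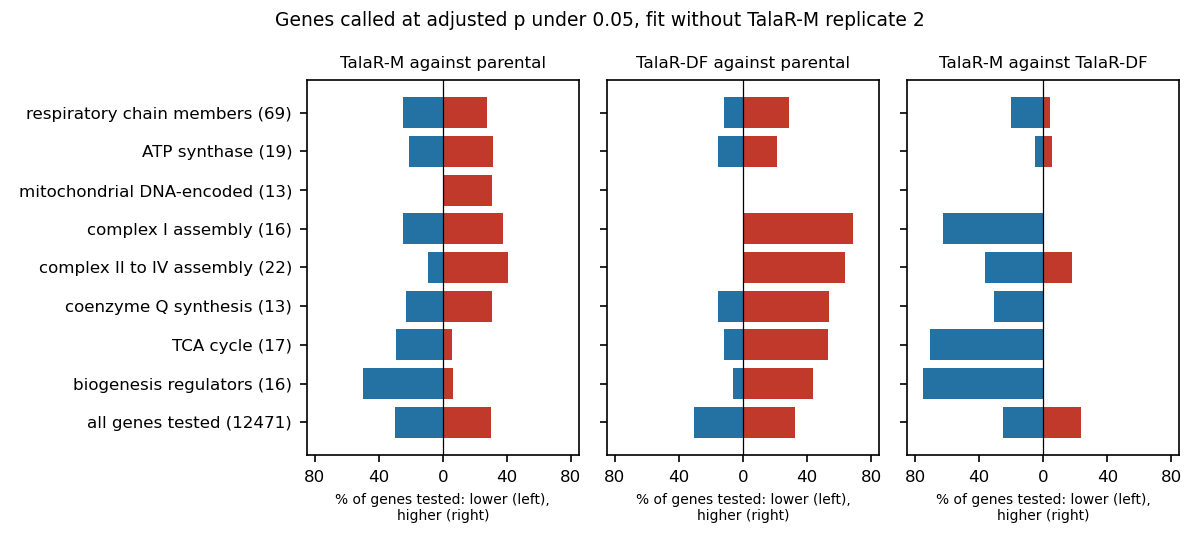
Bars give the percent of genes tested in each list that were called lower (left, blue) or higher (right, red) at an adjusted p under 0.05 in the fit without TalaR-M replicate 2, with the number tested in brackets. The respiratory chain is near or below all genes tested, whereas complex I assembly factors are higher in 11 of 16 in TalaR-DF cells and biogenesis regulators are lower in 12 of 16 between TalaR-M and TalaR-DF cells.

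Markers of the line and of other cells were checked. Of 8 epithelial and pancreatic markers, 7 were detected. Without replicate 2, 4 of these were higher and 1 lower in TalaR-M and 1 higher and 2 lower in TalaR-DF than in parental cells (2 and 1, and 1 and 1, with 9 libraries). KRT19 was at 5.77 to 5.83 in parental, 7.81 to 9.53 in TalaR-M and 5.73 to 5.99 in TalaR-DF libraries. SOX9 was lower in both resistant groups, at -0.59 and -0.78 without replicate 2 (adjusted p = 2.08e-05 and 8.08e-07, and 0.0353 and 0.0792 with 9 libraries). KRT7 was lower in TalaR-DF cells, at -1.23 (adjusted p = 2.08e-08, and 0.0426 with 9 libraries). KRT8 and KRT18 were higher in TalaR-M cells without replicate 2, by 0.70 and 0.41 (limma adjusted p = 1.49e-05 and 0.000641). Neither of these passed with 9 libraries (adjusted p = 0.0539 and 0.157). By the counts above, the epithelial markers moved in both directions in both resistant groups. Of 12 markers of other cell types, 5 passed the filter and CD68 and ALB, among others, were at 0 in all libraries. Without replicate 2, 2 of the 5 were higher and 3 lower in TalaR-M and 0 and 3 in TalaR-DF than in parental cells (1 and 2, and 0 and 3, with 9 libraries). PTPRC reached 1.79 in TalaR-M replicate 1 and was 0 in replicate 2, DCN was at 1.45 to 1.73 in TalaR-M libraries and 0 elsewhere, and PDGFRB dropped from 6.06 to 6.19 in parental to 2.40 to 3.62 in resistant libraries. PECAM1 dropped from 3.76 to 3.84 in parental to 1.54 to 2.56 in resistant libraries. Its limma adjusted p with 9 libraries was 0.000334 in TalaR-M and 5.45e-05 in TalaR-DF cells. Their part in the results above was not tested.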

How the data were processed

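RNA of PSN1 cells was sequenced by the authors from stranded poly(A) libraries with paired-end reads. The deposited values are log2 CPM that use effective library sizes and a small prior count, and anything under 0 was set to 0. The build is hg38 per the submitters' processing notes, and the aligner, counter and annotation are not given in the sources used here. The unit was read from the values: below 50 CPM, 100% were whole reads within 0.02, at 7.54 to 15.7 reads per CPM, so depth limits genes near 1 CPM. The maintain and withdraw columns were read as TalaR-M and TalaR-DF. Other lines and short treatments in the series were not analysed here.

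The log2 values were compared in limma 3.58.1 (R 4.3.3) in 1 model of the 3 groups with a mean-variance trend, without an added pseudocount, over the 12471 genes above 1 CPM in at least 3 libraries. Two-sided p-values were adjusted over all of these by Benjamini-Hochberg, with 0.05 as the threshold, and a 2-fold limit was a second rule. The model was tested on simulated counts that used the depth of each library but held no transcript length trend. That run therefore does not cover a library like TalaR-M replicate 2. The call without TalaR-M replicate 2 is an alternative fit to the same genes. Other alternatives were no filter, 5 CPM, 8 CPM added, median-ratio rescaling, no trend, a replicate block, 2 groups alone, array weights, removal of a spline (5 degrees of freedom) on transcript length, and each library left out. Lengths, overlaps and positions came from GENCODE 44 by symbol, and promoters from a RefSeq table of GRCh38.p14. Matplotlib 3.10.9 drew the plots.

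The members and lists were chosen with earlier results of these data known. Named members were those past 2-fold, the highest and lowest of each complex or module in each comparison with parental cells, the tissue and hypoxia isoforms, and up to 5 whose direction turned without TalaR-M replicate 2. Of each other list, the genes with the largest and smallest TalaR-DF value were named. CYC1, CYCS and NDUFAB1 were named as the whole of their list, and KRT8, KRT18 and PECAM1 after their values were seen. The values of a few of these genes are not reported here, although counts and medians include them. UQCRC2, NDUFA5, NDUFA8, NDUFA10, NDUFA11 and the untested members were named after their values were seen.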

Additional observations from a re-analysis of the deposited data

How the results depend on the processing

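Of the settings tried, TalaR-M replicate 2 and how it is weighed mattered most. For TalaR-M against parental cells, 4 members were called with 9 libraries, 36 with array weights (which gave that library a weight of 0.013), 18 with the transcript length trend removed, 2 in a fit of the 2 groups alone, 1 with a limit of 2-fold, and 2 to 36 when 1 library was left out. For TalaR-DF against parental cells the count of 4 became 30, 9, 30 and 1 under these settings, and 1 to 28 when 1 library was left out. For TalaR-M against TalaR-DF cells the count of 1 became 16, 9, 0 and 0, and 0 to 17. The highest count of each range came without TalaR-M replicate 2, where the fits had 8 libraries and a lower estimated spread. The share of all genes called rose there as well, in TalaR-M against parental cells from 10.3% higher and 13.2% lower to 30.2% and 30.0%. Apart from the 2-fold limit, shares of all genes under the other settings were not counted, so these counts describe the settings and not the members. A filter of 5 CPM, no filter, 8 CPM added, rescaling by the median ratio (which moved TalaR-M replicate 2 by -0.33) and no mean-variance trend gave counts within 1.5 times those of 9 libraries, and the medians of the members moved by less than the spread between replicates, which that library widened. With the replicate number as a block, 3, 3 and 0 members were called (2 and 4 members at an unadjusted p under 0.05 were higher and lower between the resistant groups without the block). The numbers did not pair the libraries: the correlation of the deviations from the group means of libraries with the same number ran from -0.47 to 0.24, and not every library correlated best with its own number. With array weights, the log2 fold change of TalaR-M against parental cells turned to -0.032 for COX14, -0.49 for COX6A1, -0.33 for NDUFB10, -0.041 for NDUFB11, -0.60 for NDUFB8 and -0.16 for NDUFB9. With array weights, the log2 fold change of TalaR-DF against parental cells turned to -0.013 for COX7A2. With array weights, the log2 fold change of TalaR-M against TalaR-DF cells turned to -0.48 for COX16, -0.13 for COX4I1, -0.035 for COX6A1, -0.15 for NDUFA12, -0.029 for NDUFA4, -0.35 for NDUFB10, -0.15 for NDUFB5, -0.49 for NDUFB8, -0.20 for NDUFB9, -0.38 for UQCR10 and -0.23 for UQCRHL. With the length trend removed, the log2 fold change of TalaR-M against parental cells turned to -0.42 for COX6A1, -0.025 for COX7A2, -0.20 for NDUFB10 and -0.56 for NDUFB8. With the length trend removed, the log2 fold change of TalaR-M against TalaR-DF cells turned to -0.073 for COX16, -0.071 for COX7A2, -0.46 for NDUFA12, -0.24 for NDUFB10, -0.46 for NDUFB8, -0.051 for NDUFB9, -0.17 for UQCR10 and -0.95 for UQCRHL. Rescaling by the median ratio turned COX16 to 0.080 (TalaR-M against parental cells), NDUFA12 to 0.049 (TalaR-M against parental cells), COX7A2 to -0.0398 (TalaR-DF against parental cells) and NDUFB10 to -0.013 (TalaR-DF against parental cells), and 8 CPM added turned COX16 to 0.020 (TalaR-M against parental cells). Leaving out 1 library at a time moved the log2 fold change across 0 in TalaR-M against parental cells: -0.052 to 1.37 for COX14, -0.44 to 0.48 for COX16, -0.48 to 0.73 for COX6A1, -0.44 to 0.20 for NDUFA12, -0.32 to 0.83 for NDUFB10, -0.041 to 1.30 for NDUFB11, -0.60 to 0.40 for NDUFB8, -0.15 to 1.04 for NDUFB9, -0.40 to 0.0037 for SDHD and -0.42 to 0.11 for UQCRHL. Leaving out 1 library at a time moved the log2 fold change across 0 in TalaR-DF against parental cells: -0.24 to 0.088 for COX16, -0.082 to 0.086 for COX7A2, -0.015 to 0.071 for NDUFB10 and -0.0012 to 0.10 for NDUFB9. Leaving out 1 library at a time moved the log2 fold change across 0 in TalaR-M against TalaR-DF cells: -0.32 to 0.59 for COX16, -0.13 to 1.03 for COX4I1, -0.011 to 1.19 for COX6A1, -0.13 to 0.51 for NDUFA12, -0.023 to 0.70 for NDUFA4, -0.35 to 0.80 for NDUFB10, -0.14 to 0.35 for NDUFB5, -0.49 to 0.51 for NDUFB8, -0.20 to 0.99 for NDUFB9, -0.37 to 0.72 for UQCR10 and -0.21 to 0.32 for UQCRHL. The causes of these turns were not tested. Removal of the length trend used canonical lengths, and whether those transcripts were the ones expressed was not tested. Values under 1 CPM are at 0 in the deposited table, so low members such as NDUFV2, COX20, COX16 and NDUFA11 are limited by depth and by the floor. With 2 TalaR-M libraries left, a call without replicate 2 assumes that this group varies like the others.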
